A study of Danio rerio with 20 samples.

Results

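Hoxb1b bound 1707 places in the genome of gastrulating zebrafish embryos after exposure to all-trans retinoic acid (atRA) that met the following rule. In control embryos of the same stage these places carried Sox3 and had no called Hoxb1b or Raraa peak. They are called premarked Hoxb1b sites here, a name that refers to the Sox3 peak in controls and shows no order in time. Each is a peak of Hoxb1b atRA replicate 2 on chromosomes 1 to 25 that overlapped, by at least 1 bp, a peak of Hoxb1b atRA replicate 1 and a peak of both Sox3 control libraries. None overlapped a peak of either Hoxb1b control, either Raraa control or either Meis2b atRA library at 80% epiboly. They made up 2.38% of the 71640 peaks of Hoxb1b atRA replicate 2, which are called anchor peaks. The sites were chosen by the authors' peak calls in those 10 libraries, so their values there are given as a description and carry no test.

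Hoxb1b is a homeodomain protein of the anterior Hox group that patterns the hindbrain. Hox proteins bind DNA together with Pbx and Meis proteins, and Meis2b belongs to the Meis family. Sox3 is a SoxB1 protein, present in early embryonic and neural progenitor chromatin. SoxB1 factors are known for occupying regulatory DNA before the genes that it controls are switched on. Raraa is a retinoic acid receptor, a nuclear receptor that binds DNA as a heterodimer with a retinoid X receptor and responds to atRA as its ligand. Retinoic acid induces anterior Hox genes and sets the position of hindbrain segments.

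The libraries came from whole wild-type embryos, so a peak averages over all cell types of the embryo, and a change in the number of cells that carry it cannot be told apart from a change within a cell. At 80% epiboly, a stage of gastrulation, Hoxb1b, Meis2b, Sox3 and Raraa were each profiled in embryos given 0.1 µM atRA from 30% epiboly and in control embryos. For Raraa there were also untreated controls of 2 later stages, 5 somites and 24 hours post fertilisation (hpf). Each of these 10 groups had 2 libraries, and nothing in the labels says whether these came from separate batches of embryos, so the spread between them may be technical. The read-out used the 5 groups that played no part in the choice of the sites: Raraa atRA, Sox3 atRA, Meis2b control, Raraa at 5 somites and Raraa at 24 hpf, 10 libraries in all. The peak lists held 23920 to 254915 peaks on chromosomes 1 to 25. They hold no read counts. The background recovered from the peak statistics, an index of depth in fragments covering a base, ran from 0.199 to 2.17.

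Of the 71640 anchor peaks, 33118 overlapped a peak of the other Hoxb1b atRA library. Both Sox3 control libraries had a peak at 17158 of these (51.8%), and 9319 of those had none in either Hoxb1b control. The background for that last step was high. Among anchor peaks shared by both Hoxb1b atRA libraries, 64.4% had no Hoxb1b control peak. The percentage was 54.3% where both Sox3 controls had a peak and 80.9% where neither did. Nothing about Sox3 premarked regions can be read from those percentages, since they belong to the rule. Raraa control peaks then left 4294 regions, and Meis2b atRA peaks left the 1707.

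Hoxb1b enrichment at the premarked sites was near the middle of its lists. The authors' fold enrichment at a summit, a ratio over the local background, had a median of 5.28 in Hoxb1b atRA replicate 1 and 5.21 in replicate 2. The medians over the entire lists were 4.71 and 5.00. The interquartile range was 4.45 to 6.47 in replicate 1 and 4.45 to 6.00 in replicate 2, with extremes of 2.56 and 14.1 in replicate 2. The summits were covered by a median of 12 fragments in replicate 1 and 9 in replicate 2, as recovered from fold and p. Among the 10000 strongest peaks of replicate 1, which make up 11.5% of that list, were 245 sites (14.4%). Among the 10000 strongest of replicate 2, which make up 14.0% of that list, were 166 sites (9.72%), so the lists differed in whether the strongest peaks held more or fewer of the sites than their size gives.

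At the premarked sites, Sox3 enrichment stood higher in its own lists than Hoxb1b did in its lists, an order not independent of the rule. The premarked sites had a median fold of 6.81 and 7.18 in the Sox3 atRA libraries, over the 1567 and 1587 sites with a peak there. It was 6.03 and 6.69 in the Sox3 controls, over all 1707 sites. At the 1497 sites with a peak in all 4 Sox3 libraries the medians were 6.92 and 7.38 after atRA, against 6.27 and 7.11. By the authors' p, the median rank of the sites called in a list fell in the top 14.2% and 14.5% of the Sox3 atRA lists. In the Sox3 control lists it fell in the top 24.1% and 18.3%. In the Hoxb1b atRA lists it fell at 30.5% and 42.7%. The rule excluded Hoxb1b control and Meis2b atRA peaks but only required Sox3 control peaks, and the lists differed in length. At the other anchor peaks with both Sox3 control peaks the ranks were 13.1% and 21.9% for Hoxb1b atRA. They were 16.5% and 13.2% for Sox3 control and 9.35% and 9.65% for Sox3 atRA. These other 18951 anchor peaks had higher median folds than the premarked sites for each factor, over those with a peak in the library. The medians were 6.43 (15451 peaks) and 5.90 for Hoxb1b atRA and 7.48 and 7.94 (17733 and 17822 peaks) for Sox3 atRA. For Sox3 control they were 6.69 and 7.41. This group could hold the Hoxb1b control, Raraa control and Meis2b atRA peaks that the rule excluded, so its higher medians are not independent of the choice of the sites. Fold enrichment was computed by the authors for each list separately, so medians from different libraries show no change between them.

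**Figure D1:**
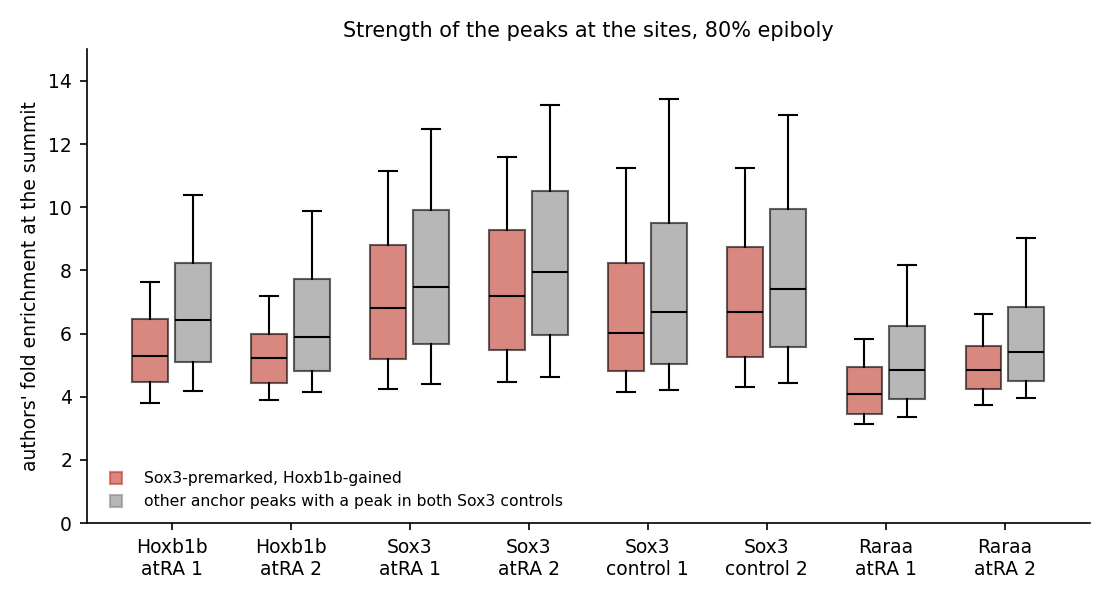
Authors' fold enrichment at the summit (vertical axis, a ratio) in the Hoxb1b atRA, Sox3 and Raraa atRA libraries, for the premarked sites and for the other anchor peaks with both Sox3 control peaks. Each box covers the regions with a peak in that library. Boxes give the median and the interquartile range and whiskers the 10th and 90th percentiles, and the premarked sites have the lower median in each of the 8 libraries (5.28 against 6.43 in Hoxb1b atRA replicate 1).

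The 8 sites that ranked best over both Hoxb1b atRA lists showed how differently the 2 factors could be combined. The region chr21:28632400-28632763 (coordinates of GRCz10 throughout) led them, with a Hoxb1b fold of 11.5 and 8.92 in the atRA libraries. Its Sox3 fold was 6.94 and 8.65 in the atRA libraries and 4.29 and 5.84 in the controls. Both Sox3 control values there were below the medians of all premarked sites, so Hoxb1b stood high there while control Sox3 was low for a premarked site, though in replicate 2 still above its list median of 4.92. Control Sox3 was also below those medians at chr6:28781276-28781474, where Hoxb1b had a fold of 9.94 and 8.93 in the atRA libraries. Sox3 had a fold of 7.09 and 11.0 there in the atRA libraries and of 4.78 and 5.00 in the controls. At both regions each Sox3 atRA value was above each Sox3 control value.

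Other leading sites lay on strong Sox3 binding. At chr17:35939469-35939918 the Hoxb1b fold was 7.65 and 7.70 in the atRA libraries, and the Sox3 fold was 11.1 and 12.9 in the atRA libraries and 16.9 and 14.1 in the controls. At chr10:2765435-2765697 Hoxb1b reached 7.62 and 8.08, and Sox3 had 12.2 and 11.5 in the atRA libraries against 17.4 and 15.4 in the controls. At chr11:23830217-23830477 Hoxb1b reached 8.89 and 7.83, and Sox3 had 10.2 and 11.0 in the atRA libraries against 12.3 and 13.1 in the controls. In all 3 regions each Sox3 atRA fold was below each Sox3 control fold.

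The highest Hoxb1b fold of any premarked site in replicate 2 was at chr11:43129902-43130274, with 14.1, beside 11.5 in replicate 1. Sox3 there had a fold of 15.1 and 12.9 in the atRA libraries and of 9.12 and 7.11 in the controls, which did not overlap. The remaining leaders, chr13:46041430-46041903 and chr20:30830694-30830956, had Hoxb1b folds of 9.59 and 10.2 and of 11.1 and 8.88. All 8 had a peak in Raraa atRA replicate 1, with folds between 3.38 and 5.87, and 3 of them also had one in Raraa atRA replicate 2. Over all anchor peaks, Raraa atRA replicate 1 had a peak at 60.5% and replicate 2 at 22.9%. In the strongest of 4 groups of the premarked sites by Hoxb1b atRA replicate 2 fold, the percentages were 76.9% and 30.6%.

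The 4 sites with the best rank by p in the Sox3 controls were not among the 8 that ranked best in the Hoxb1b atRA lists. At chr25:12379057-12379272 Sox3 had a fold of 19.0 and 19.4 in the atRA libraries and 20.6 and 19.9 in the controls, while Hoxb1b had 4.73 and 7.53. At chr15:23641124-23641283 Sox3 had 12.6 and 15.1 in the atRA libraries and 23.1 and 19.4 in the controls, and Hoxb1b only 3.66 and 4.25, below the medians of its lists. The other two were chr24:19299057-19299288, with Hoxb1b folds of 9.74 and 8.48, and chr25:14478729-14478924, with 7.68 and 5.63. Strong Sox3 binding was thus found with Hoxb1b on either side of its median.

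Across the 1707 sites the strengths of the 2 factors had low correlations, as did the Hoxb1b replicates with each other. Spearman's rho between the fold of Hoxb1b atRA replicate 2 and of the Sox3 controls was 0.0838 and 0.188, and with Hoxb1b atRA replicate 1 it was 0.0834 and 0.272. For Hoxb1b atRA replicate 2 it was 0.207 and 0.219 with the Sox3 atRA libraries, over the 1567 and 1587 sites with a peak there. The replicates set the scale for these values, with rho of 0.285 between the Hoxb1b atRA libraries, 0.459 between the Sox3 controls and 0.698 between the Sox3 atRA libraries. These are correlations across sites, which are no replicates, and the libraries differed in depth. How far depth and the local background of a site bear on them was not tested. When the sites were put into 4 groups of nearly equal size by Sox3 control strength, the median fold of Hoxb1b atRA replicate 2 was 4.94, 5.18, 5.22 and 5.35 from the weakest group to the strongest, and that of replicate 1 was 4.97, 5.24, 5.61 and 5.69.

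Hoxb1b and Sox3 summits lay close together, within the reach that the overlap rule allows. The median distance from the anchor summit was 72 bp to the summit of Hoxb1b atRA replicate 1. It was 70 and 72 bp to the Sox3 atRA summits, and 76 bp to the summits of both Sox3 controls. A Sox3 summit was therefore about as far from the Hoxb1b summit as the other replicate's own Hoxb1b summit was. This was not particular to the premarked sites. At the other anchor peaks with both Sox3 control peaks the medians were 67 bp to Hoxb1b atRA replicate 1 and 66 and 68 bp to Sox3 atRA. Nor was it particular to Sox3, as the Raraa atRA summits at the premarked sites lay at medians of 68 and 86 bp. Within 50 bp were 37.6% of the Hoxb1b replicate summits, 38.3% and 39.0% of the Sox3 atRA summits and 35.7% and 37.6% of the Sox3 control summits. With chromatin sheared to about 300 bp, these distances are below the fragment length. The sites were narrow, with a median width of 224 bp and a range of 155 to 856 bp.

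**Figure D2:**
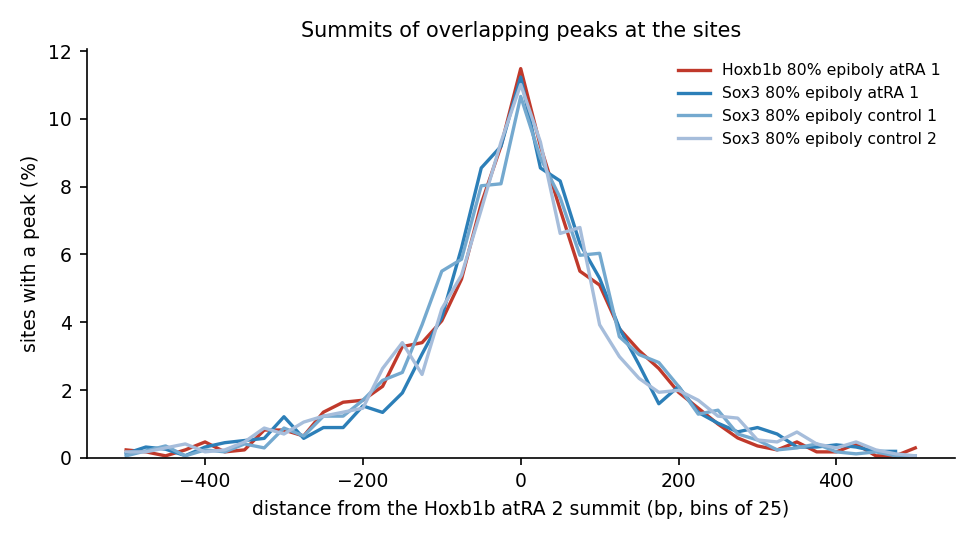
Signed distance in bp from the summit of Hoxb1b atRA replicate 2 to the summit of the overlapping peak in Hoxb1b atRA replicate 1, Sox3 atRA replicate 1 and both Sox3 controls (horizontal axis, bins of 25 bp), as a percentage of the premarked sites with that peak (vertical axis). The curves lie close together and centre on 0, with median absolute distances of 70 to 76 bp.

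The read-out began with Sox3 after atRA. Both Sox3 atRA libraries had a peak at 1497 of the premarked sites (87.7%), a further 160 (9.37%) had a peak in 1 of them, and 50 (2.93%) had none. At least 1 of them had a peak at 1657 sites (97.1%), against 62.3% of all anchor peaks and 97.2% of anchor peaks with both Sox3 control peaks. By library the percentages were 91.8% and 93.0%, against 52.9% and 52.5% of all anchor peaks. Over all anchor peaks both libraries had a peak at 43.1%, and over all anchor peaks with both Sox3 control peaks at 90.2%. The percentage at the premarked sites was thus near that of premarked anchor peaks in general. Within the sites it rose with the strength of control Sox3 binding: both Sox3 atRA libraries had a peak at 71.9%, 86.3%, 93.9% and 98.8% of the sites, from the weakest group by Sox3 control fold to the strongest. That split used the Sox3 control lists by which the sites were chosen. No percentages over other anchor peaks of the same Sox3 fold stand beside it, so it is no result particular to the sites.

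Sox3 fold was set side by side between treatments at the sites called in all 4 libraries, as a description of lists called separately. At the 1497 sites with a peak in all 4 Sox3 libraries, the median of log2 atRA over control was 0.05, with an interquartile range of -0.22 to 0.31. Both atRA values were above both control values at 334 sites (22.3%) and below them at 276 (18.4%), and the treatments overlapped at 887. At the other 17135 anchor peaks with a peak in all 4 libraries the median was 0.01, with 23.6% above and 22.3% below. With 2 libraries against 2, no single site can be called changed. These sites had to have a peak in all 4 libraries. A site gained by Sox3 could not be among them, and neither could the sites with a peak in 1 Sox3 atRA library or none, so the values do not show that Sox3 was unaffected by atRA.

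Raraa, whose control peaks at 80% epiboly excluded a region, was called after atRA at a percentage of the premarked sites near that of anchor peaks in general. At least 1 Raraa atRA library had a peak at 1228 sites (71.9%), against 63.2% of all anchor peaks and 85.4% of anchor peaks with both Sox3 control peaks. Both had a peak at 344 sites (20.2%), against 20.2% and 41.9%. These percentages were near those of all anchor peaks and below those of anchor peaks with both Sox3 control peaks, so they are no result about the sites. They say only that the sites are not free of Raraa peaks after atRA, which the rule did not ask for. The libraries disagreed: Raraa atRA replicate 1 had a peak at 68.4% and replicate 2 at 23.7%, against 60.5% and 22.9% of all anchor peaks. Replicate 1 also had the highest background of all libraries, 2.17 fragments covering a base, against 0.606 in replicate 2, and its list was the longest, with 254915 peaks. The part of this depth difference was not tested. The median Raraa fold at the sites was 4.10 in replicate 1 and 4.84 in replicate 2, against list medians of 3.72 and 4.53.

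Raraa was next read out at the later stages, with the antibody whose control peaks at 80% epiboly had excluded regions. Anchor peaks in general could hold such control peaks, so the percentages are not independent of the choice of the sites. At 5 somites each library had a peak at 398 sites (23.3%), against 28.6% and 29.2% of all anchor peaks. Either library had one at 626 sites (36.7%), against 42.3% of all anchor peaks and 62.4% of those with both Sox3 control peaks, and 170 sites (9.96%) had it in both, against 15.4% of all anchor peaks and 30.9% of those with both Sox3 control peaks. At 24 hpf the libraries had a peak at 18.2% and 30.9% of the sites, against 24.4% and 32.5% of all anchor peaks. Either had one at 706 sites (41.4%), against 43.1% of all anchor peaks and 64.5% of those with both Sox3 control peaks, and 132 sites (7.73%) had it in both, against 13.8% and 27.6%. The mean over libraries was 46.0% ± 31.6 for Raraa atRA at 80% epiboly (SD, n = 2), against 23.9% for the 4 later libraries. The difference of 22.1 percentage points did not pass the exact two-sided permutation test over 15 arrangements (p = 0.133, adjusted p = 0.178 over 4 tests), and the smallest p this design allows is 0.0667. It rested on Raraa atRA replicate 1, without which it was -0.205. The libraries compared differ in both stage and treatment, which cannot be told apart here. Over all other anchor peaks the means lay in the same order, with 41.6% for Raraa atRA, 29.0% at 5 somites and 28.5% at 24 hpf.

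Meis2b in control embryos was rare at the premarked sites. Its libraries had a peak at 86 sites (5.04%) and 136 sites (7.97%), against 11.1% and 14.7% of all anchor peaks. Either of them had one at 208 sites (12.2%) and both at 14 (0.820%). Over all anchor peaks the figures were 21.2% for either and 4.52% for both, and over anchor peaks with both Sox3 control peaks 35.7% and 11%. At the 2467 Hoxb1b-gained regions without Sox3 control peaks, under the same Meis2b atRA exclusion, the figures were lower still, 9.16% and 0.365%. Low Meis2b control percentages were thus not particular to the premarked sites. Meis2b atRA peaks excluded a region, and Meis2b was thus read out with the antibody that had helped choose the sites. These 208 sites are ones at which Meis2b was called in control embryos and not after atRA. The Meis2b control libraries were among the shallowest, with backgrounds of 0.199 and 0.267.

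**Figure D3:**
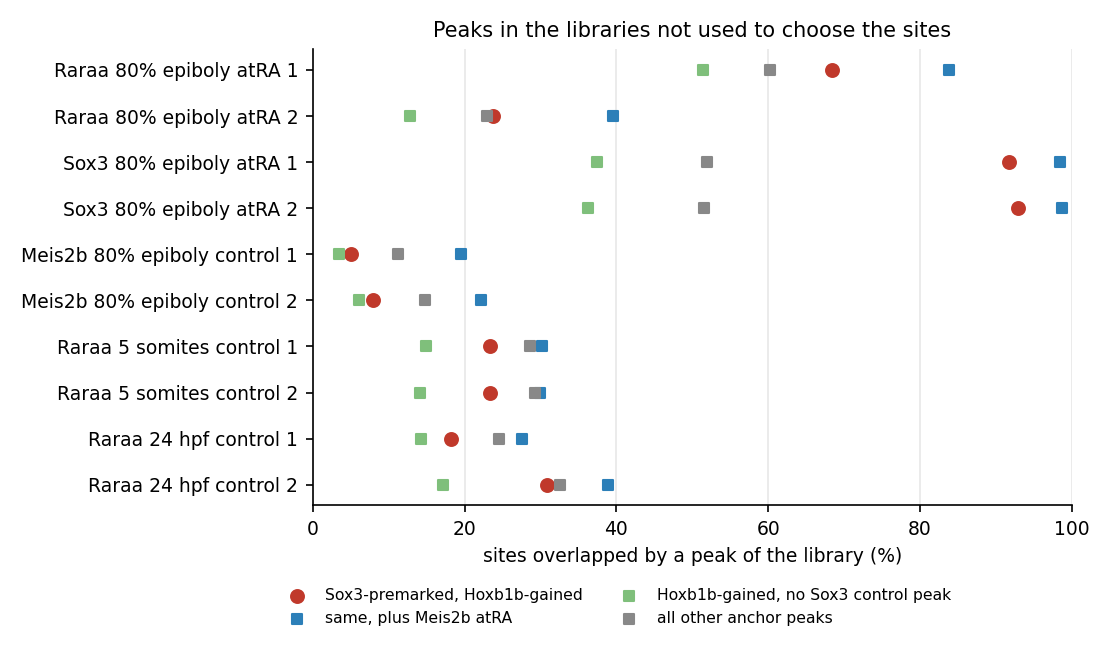
Percentage of regions with a peak (horizontal axis) in each of the 10 read-out libraries (1 row each), for the premarked sites, the same with Meis2b atRA peaks, the Hoxb1b-gained regions without Sox3 control peaks and all other anchor peaks. The premarked sites lie left of the regions with Meis2b in all 10 rows and right of the regions without Sox3 in all 10, with the widest gap to the regions without Sox3 at Sox3 atRA (91.8% against 37.5% in replicate 1).

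The premarked sites were set against 3 other groups of anchor peaks over the 10 read-out libraries, each library giving 1 difference in percentage. The first, 1352 regions, met the same rule except that both Meis2b atRA libraries had a peak. The premarked sites were occupied less often than these. On average 38.6% of the premarked sites had a peak in a library, against 48.9% of the regions with Meis2b, a difference of -10.3 ± 4.15 percentage points (SD over 10 libraries). The difference was negative in 10 of 10 libraries, with p = 0.00195 in the exact two-sided sign-flip permutation test, the smallest p that 10 libraries allow, and an adjusted p of 0.00391. The regions with Meis2b had to have a peak in both Meis2b atRA libraries, and the premarked sites in neither. The direction of the difference is therefore not independent of how the groups were chosen, which this test cannot separate. By library the difference was widest for Raraa atRA replicate 2, with 23.7% of the premarked sites against 39.6%, and for Raraa atRA replicate 1, with 68.4% against 83.8%. For Meis2b control it was 5.04% and 7.97%, against 19.6% and 22.1%. The Meis2b control libraries used the antibody by which these 2 groups had been separated. Without them, an alternative chosen after seeing the data, the difference was -9.33 percentage points (adjusted p = 0.0156, exact permutation test).

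The regions with Meis2b also had stronger Hoxb1b peaks. The median fold in Hoxb1b atRA replicate 1 was 5.28 at the premarked sites, against 6.92 at the regions with Meis2b. Their Sox3 control fold was 6.03 and 6.69 at the premarked sites, against 7.06 and 7.67. Among anchor peaks with a Hoxb1b atRA replicate 2 fold of 5 to 6 in both sets, a band chosen after seeing the data, the difference was -5.98 percentage points (p = 0.0156, adjusted p = 0.0312, exact permutation test). That p is above the smallest possible, 0.00195, so the difference was not negative in every library. Strength in Hoxb1b replicate 1 and in Sox3 was not matched, and how far strength bears on the result was not tested. Widths had medians of 224 bp at the premarked sites and 328.5 bp at the regions with Meis2b, and the Hoxb1b replicate summits were 72 bp and 53 bp apart.

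The second group, 2467 regions, met the Hoxb1b, Raraa and Meis2b conditions but had no peak in either Sox3 control. The premarked sites were occupied more often, 38.6% against 20.8% on average, a difference of 17.8 ± 20.5 percentage points that was positive in 10 of 10 libraries (p = 0.00195, adjusted p = 0.00391, same exact test). The Sox3 atRA libraries gave most of it, with 91.8% and 93.0% of the premarked sites against 37.5% and 36.2% of the regions without Sox3. These used the antibody by which the groups had been separated. The premarked sites had to have a peak in both Sox3 controls, and the regions without Sox3 in neither. The direction of this difference, too, is not independent of how the groups were chosen. Hoxb1b was also stronger at the premarked sites, with a median fold of 5.28 and 5.21 in the atRA libraries against 4.63 in both at the regions without Sox3, and their widths had medians of 224 bp and 190 bp. Among anchor peaks with a Hoxb1b atRA replicate 2 fold of 5 to 6 in both sets, a band chosen after seeing the data, the difference was 16.5 percentage points (adjusted p = 0.00781, exact permutation test). Over the 8 libraries of the other antibodies the difference was 8.32 percentage points and still positive in each (adjusted p = 0.0156, exact permutation test). For Raraa atRA it was 68.4% and 23.7% of the premarked sites against 51.4% and 12.8%, and for Raraa at 24 hpf 18.2% and 30.9% against 14.3% and 17.1%.

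Against all 69933 other anchor peaks no difference held. The mean was 38.6% at the premarked sites and 32.8% elsewhere, a difference of 5.78 ± 19.0 percentage points that was positive in 4 libraries and negative in 6 (p = 0.453 in the exact permutation test). Its direction turned among the 10000 strongest anchor peaks, where 166 premarked sites were left and the difference was -18.5 (adjusted p = 0.0104, exact permutation test), and without the Sox3 atRA libraries, at -2.94. The 4 positive libraries were those of Raraa atRA and Sox3 atRA, and the 6 negative ones were Meis2b control and Raraa at both later stages. In both comparisons that passed, libraries of 1 antibody and group share their source. Taken as 5 group means, the smallest p possible is 0.0625, and neither comparison can pass.

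Counted per site, a premarked site had a peak in a median of 4 of the 10 read-out libraries. The median was 5 at the regions with Meis2b, 2 at the regions without Sox3 and 6 at the other anchor peaks with both Sox3 control peaks. Both Sox3 atRA libraries and no other read-out library had a peak at 209 premarked sites (12.2%). The percentage was 3.01% at all other anchor peaks, 5.10% at the regions with Meis2b and 4.34% at the regions without Sox3. It was 3.77% at the other anchor peaks with both Sox3 control peaks. The rule required Sox3 control peaks and excluded Raraa control and Meis2b atRA peaks, so the 12.2% is not independent of the choice of the sites. No Raraa peak in any of the 6 read-out Raraa libraries was found at 264 premarked sites (15.5%). That was above the 5.79% of the other anchor peaks with both Sox3 control peaks and the 6.95% of the regions with Meis2b. It was below the 23.2% of all other anchor peaks and the 30.3% of the regions without Sox3. Raraa was called in at least 1 atRA library and in none of the 4 later ones at 461 sites (27.0%), against 18.4% of all other anchor peaks and 13.6% of the other anchor peaks with both Sox3 control peaks. This was not particular to the premarked sites, with 26.6% at the regions with Meis2b and 27.4% at the regions without Sox3. Raraa was called in a later library but neither atRA library at 215 sites (12.6%), against 13.8% of all other anchor peaks and 7.56% of those with both Sox3 control peaks. A Raraa peak in all 6 libraries was found at 17 sites (0.996%), against 5.18% of all other anchor peaks and 13.9% of those with both Sox3 control peaks. It was found at 4.07% of the regions with Meis2b and 0.405% of the regions without Sox3. The rule excluded Raraa control peaks, which the groups of other anchor peaks could hold. These Raraa percentages are therefore not independent of the choice of the sites.

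**Figure D4:**
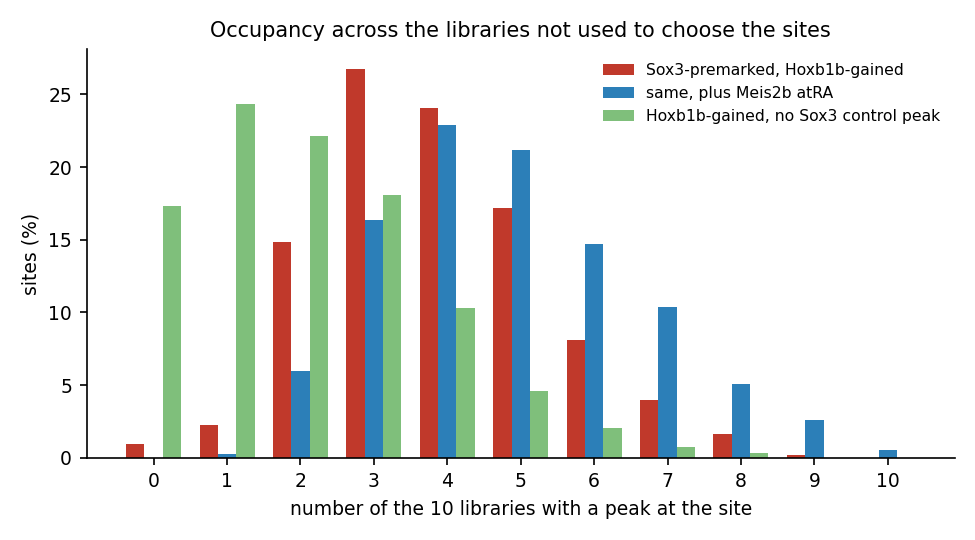
Percentage of regions (vertical axis) by the number of the 10 read-out libraries with a peak (horizontal axis), for the premarked sites, the same with Meis2b atRA peaks and the Hoxb1b-gained regions without Sox3 control peaks. The premarked sites have a median of 4 libraries, the regions with Meis2b 5 and the regions without Sox3 2.

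A peak in 9 read-out libraries was found at 3 sites (0.176%), against 2.32% of all other anchor peaks and 6.91% of those with both Sox3 control peaks. No premarked site had one in all 10, against 1.41% and 4.34%. At chr1:46398257-46398664 every read-out library but Meis2b control replicate 2 had a peak, with Raraa folds of 4.91 and 6.25 in the atRA libraries, 4.34 and 5.43 at 5 somites and 3.68 and 5.39 at 24 hpf. At chr12:35018556-35018827 only Raraa atRA replicate 2 lacked one, and at chr7:28893079-28893345 only Meis2b control replicate 1. The region chr12:36658335-36658538 had 8, with no Meis2b peak. There Raraa had a fold of 14.2 and 6.85 in the atRA libraries, 7.80 and 7.18 at 5 somites and 5.34 and 7.68 at 24 hpf. Its Sox3 fold was 20.6 and 24.7 in the atRA libraries and 24.9 and 10.7 in the controls, and its Hoxb1b fold 10.9 and 9.49, so each of these 3 factors was above its list median in every such library.

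At the other end, 16 sites (0.937%) had no peak in any read-out library, against 14.9% of all other anchor peaks and 0.459% of those with both Sox3 control peaks. The best ranked was chr25:344773-344972, with a Hoxb1b fold of 5.85 and 6.17 in the atRA libraries and a Sox3 fold of 5.70 and 5.98 in the controls. At chr2:2295765-2296096 Hoxb1b had 5.62 and 4.75, and Sox3 had 7.97 and 6.45 in the controls. This region met a required peak by only 10 bp. A neighbouring premarked site had the same Hoxb1b replicate 1 fold and the same Sox3 control folds. That neighbour had a peak in both Sox3 atRA libraries. The shared folds may therefore belong to peaks centred outside chr2:2295765-2296096, and they do not show strong control Sox3 binding within it. At chr21:10693036-10693255 Hoxb1b had 5.47 and 4.19, and Sox3 had 5.12 and 3.51. At chr5:4507372-4507872 Hoxb1b had 4.11 and 7.73, and Sox3 had 7.02 and 4.88. The first region had replicate values close together, and the last one did not.

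Among the premarked sites, Raraa was called most often where Hoxb1b was strongest, and so was Sox3 after atRA. This is a description, since the split used the fold of the anchor list. No percentages over all anchor peaks of the same fold stand beside it, so it is no result particular to the sites. In 4 groups of nearly equal size by fold in Hoxb1b atRA replicate 2, from the weakest to the strongest, Raraa atRA replicate 1 had a peak at 64.6%, 63.9%, 68.0% and 76.9%. The percentages were 19.0%, 22.2%, 24.1% and 28.0% for Raraa at 5 somites replicate 1, and 26.2%, 29.3%, 30.4% and 37.9% for Raraa at 24 hpf replicate 2. This was not particular to Raraa. Sox3 atRA had a peak at 89.0%, 90.2%, 92.3% and 95.8% in replicate 1 and at 90.6%, 91.6%, 94.2% and 95.5% in replicate 2. Meis2b control had one at 5.85%, 5.15%, 3.74% and 5.41% in replicate 1 and at 7.49%, 6.09%, 8.41% and 9.88% in replicate 2, so only the second was highest in the strongest group.

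The absence of a control Hoxb1b peak has to be read with depth. The background was 0.910 and 0.533 fragments covering a base in the Hoxb1b atRA libraries, against 0.235 and 0.286 in the Hoxb1b controls. When each site's fragments in Hoxb1b atRA replicate 1 were scaled to the background of the controls, 697 sites (40.8%) would have reached the lowest −log10 p called in control replicate 1 and 1028 (60.2%) that of control replicate 2. From Hoxb1b atRA replicate 2 the numbers were 1170 (68.5%) and 1494 (87.5%). Over all peaks of the atRA lists the percentages were 23.8% and 39.3% from replicate 1 and 62.1% and 85.1% from replicate 2. The last of these was near the percentage of the sites. All 4 combinations were reached by 505 sites (29.6%) and none by 89 (5.21%). These counts were not taken over all peaks of the lists, so they are no result particular to the sites. Reaching that level is not the same as being called there. Over the 33118 shared Hoxb1b peaks, this was read from Hoxb1b atRA replicate 2 scaled to control replicate 2. Control replicate 2 had a peak at 15.6% of those with a scaled −log10 p of 3 to 4 and at 47.7% of those at 15 or above, and either control had one at 25.4% and 69.0%. On that same scaling, the ranges of 3 to 4 and of 4 to 5 held 8897 and 7064 of the 33118 shared peaks. They held 37.0% and 26.1% of the premarked sites. A missing control peak at such sites therefore does not show that Hoxb1b was absent there in control embryos.

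**Figure D5:**
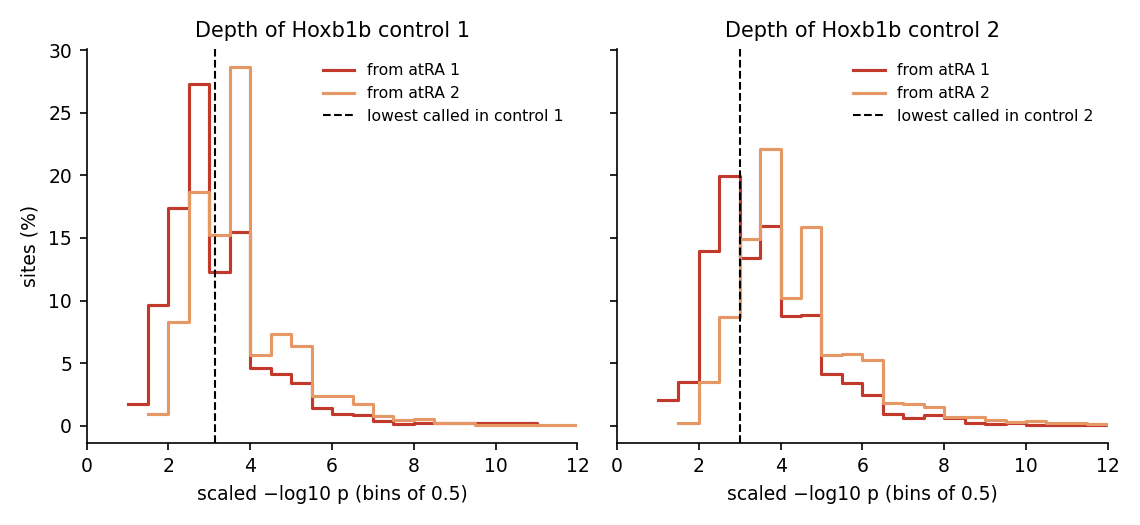
Percentage of premarked sites (vertical axis) by the −log10 p that their Hoxb1b atRA fragments would give at the background of Hoxb1b control replicate 1 (left) and replicate 2 (right), from each atRA library (solid lines), with the lowest −log10 p called in that control (dashed line). Between 40.8% and 87.5% of the sites lie at or above the dashed line, depending on which libraries are combined, against 23.8% to 85.1% of all peaks of the atRA lists.

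An excluded peak was near some of the sites. The nearest peak of any of the 6 excluded libraries was a median of 1165 bp away, and it was within 500 bp of 621 sites (36.4%). For Hoxb1b control alone the median was 3913 bp, with 209 sites (12.2%) within 500 bp. For Raraa control it was 2403 bp with 362 sites (21.2%), and for Meis2b atRA 3603 bp with 326 sites (19.1%). These distances were not taken for other anchor peaks, so they describe the sites and show nothing particular to them.

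The edge of the rule was thin. A single excluded library kept out 3016 anchor peaks that met all other conditions, and Raraa control replicate 2 accounted for 1163 of them. Just inside, chr2:973341-973673, chr9:1481270-1481469 and chr19:33656590-33656791 each met a required peak by 1 bp. Their Hoxb1b folds were 7.13 and 6.06, 5.24 and 6.42, and 5.91 and 4.87. Just outside, chr25:24629637-24629791 was excluded by 1 bp of a Raraa control replicate 2 peak, with Hoxb1b folds of 5.76 and 4.41. At chr21:6907839-6908038, excluded by 2 bp of a Meis2b atRA replicate 2 peak, they were 6.65 and 6.36. At chr5:52137254-52137501, excluded by 2 bp of a Raraa control replicate 2 peak, they were 3.94 and 5.54. The folds ran from 4.87 to 7.13 just inside and from 3.94 to 6.65 just outside, in 3 regions each.

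The premarked sites were spread over all 25 chromosomes, from 44 on chromosome 4 to 108 on chromosome 5. They made up 1.71% of the anchor peaks of chromosome 4 and 3.07% of those of chromosome 21. Neighbouring sites were a median of 451032 bp apart, and 118 gaps were of 25 kb or less. There were 8 runs of 3 sites with no gap above that, the tightest at chr5:40046243-40053815. That run, 7572 bp long, held no anchor peak other than its 3 premarked sites. Another, chr6:28772372-28805226, held the strong Hoxb1b site on chromosome 6 named above. Sites are not independent of each other: 40 of them share a Hoxb1b atRA replicate 1 peak with another site, and 32 share a peak of Sox3 control replicate 1.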

How the data were processed

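Binding was measured by ChIP-seq on Tn5-tagged chromatin (ChIPmentation). Alignment and peak calling used Bowtie, SAMtools and MACS2 on GRCz10 (danRer10), per the submitters' processing notes, without versions; the use of an input control is not given in the sources used here. Every library has its own deposited list of peaks, with its own name prefix, called by the authors at a q-value below 0.05. The authors' values per peak are a fold enrichment (a ratio over the background around it), and the −log10 of p and of q. They served to order and describe the peaks of a list. Peak names in either Sox3 control list contain a 2, but these lists share only 6 identical intervals and were kept apart.

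The number of fragments k at a summit and its background b were recovered from fold = (k+1)/(b+1) and the Poisson p, for 100% of peaks to within 0.002 in −log10 p. The depth index of a library is the 0.001 quantile of b. Total reads are unknown, so no counting interval is given.

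Overlap was counted at 1 bp or more with Python 3.11.15, numpy 2.4.6, pandas 2.3.3 and scipy 1.17.1, and the scripts were tested on simulated data. The 4 tests were exact permutation tests over libraries, two-sided, adjusted by the Benjamini-Hochberg method. They measure the spread between libraries only. The sites, comparison sets and regions to be named were chosen with earlier results of these data known. Regions were named by rule: the 8 best by mean rank in the Hoxb1b atRA lists, the 4 best in the Sox3 control lists, the 4 with most and the 4 best ranked with no read-out peaks, and 3 just inside and outside the rule; clusters were named after they were seen. Sequence, motifs and nearest genes are not analysed here, since no genome or annotation of GRCz10 was used. The stage of the 5 somite and 24 hpf libraries was taken from their titles.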

Additional observations from a re-analysis of the deposited data

How the results depend on the processing

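The number of sites depended on the rule. It was 1707 as reported, 925 when 50% of the anchor peak had to be covered, 356 when required peaks needed a q of at most 1e-05 and 1086 when no excluded peak could lie within 500 bp. Leaving out each library of the rule gave 1817 to 4123 sites, since fewer lists then had to be met. The number moved by over 1.5 times without Hoxb1b atRA replicate 2 (4123), Hoxb1b atRA replicate 1 (2899), Sox3 control replicate 1 (3261) or Raraa control replicate 2 (2870). Without Hoxb1b atRA replicate 2 the sites were counted as peaks of Hoxb1b atRA replicate 1, a different list. The other 3 alternatives gave 1632 to 1741. In percentage points, leave-one-out values were -14.5 to -7.36 against the regions with Meis2b, 12.1 to 22.8 against the regions without Sox3, 1.82 to 10.3 against all other anchor peaks, and -0.205 (without Raraa atRA replicate 1) to 44.4 for Raraa atRA minus later stages. Both comparisons that passed lost it only over 5 group means, at -10.3 and 17.8 (adjusted p = 0.125 each, exact permutation test), because that design cannot give a smaller p. The difference from all other anchor peaks turned to -18.5 among the 10000 strongest anchor peaks (adjusted p = 0.0104, exact permutation test, 166 sites) and to -2.94 without the Sox3 atRA libraries, an alternative chosen after seeing the data, as were those on fold 5 to 6 and without Meis2b control; the cause was not tested. Libraries were not treated as paired by replicate number, as all 10 correlations between groups lay between -0.0423 and 0.0439. That cannot exclude a batch of embryos shared by libraries of the same number. With the replicate block the values were -10.3, 17.8 and 5.78, without a test, and 22.1 for Raraa (p = 0.222, exact permutation test, 9 arrangements); it was 47.6 among libraries numbered 1 and -3.40 among those numbered 2. Depth limits every statement that a peak was absent.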
